A study of Sus scrofa with 5 samples.

Results

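Nuclei of the pig abdominal aorta were selected for RNA of fibroblast genes and for the lack of RNA of RALYL, STK32B, CYP27A1, SORCS2, GRIA4 and COMP. A nucleus was a candidate when it had at least 1000 unique molecular identifiers (UMIs), at least 1 UMI of 2 or more of PDGFRA, DCN, LUM, FBLN1, COL1A1, PI16 and DPT, and 0 UMIs of PECAM1, CSF1R and CD163. Of 3494 candidates, 2109 had 0 UMIs of all of the 6 genes named first, which was 5.79% of the 36447 nuclei with at least 1000 UMIs. These are called the selected nuclei here, and the remaining 1385 are called the other candidates. The selection used the counts of the genes just named, so their levels in the selected nuclei are given as a description and without a test.

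The nuclei came from 3 obese and 2 control animals, all castrate male Ossabaw pigs, a strain used as a model of obesity and metabolic disease. Both groups started their diet at 12 months of age, the obese pigs on an HF/HFru diet and the control pigs on chow, and the series title speaks of atherosclerotic and healthy aortae. The length of the diet is 6 months in the sample labels and 9 months in the series text. Frozen vessel pieces were dissociated, nuclei stained with DRAQ5 were sorted, and each replicate went through its own droplet reaction with 10x 3' chemistry. The selected nuclei numbered 258, 450 and 620 in obese replicates 1 to 3, and 451 and 330 in control replicates 1 and 2.

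Adventitial fibroblasts make and repair the collagen and proteoglycan coat of an artery and are known in many tissues by PDGFRA, a receptor for platelet-derived growth factors. DCN and LUM encode small leucine-rich proteoglycans of the matrix, and DPT and FBLN1 encode matrix proteins. PI16, a peptidase inhibitor, marks a fibroblast population found around vessels. COL1A1 encodes a chain of type I collagen, which vascular smooth muscle makes as well, so it is a less specific mark than PDGFRA.

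The label of these nuclei as fibroblasts did not hold for most of them. The pair FBLN1 and COL1A1 alone brought 1535 of the 2109 nuclei through the selection, or 72.8%. COL1A1 had at least 1 UMI in 94.1% of the selected nuclei and FBLN1 in 82.0%, against 21.04% and 7.01% in T or NK-like nuclei, which should lack both and give the level of free RNA. PDGFRA was found in 13.4%, DCN in 7.44%, LUM in 3.41% and PI16 in 3.08%, against 1.83%, 1.22%, 0.305% and 1.22% in T or NK-like nuclei. DPT was found in 3.08% of the selected nuclei. The median depth was 4662 UMIs in the selected and 2868.5 UMIs in the T or NK-like nuclei, and the part of depth in these gaps was not tested. The smooth muscle genes MYH11, a myosin heavy chain, and MYOCD, a coactivator that drives contractile genes, had UMIs in 86.4% and 70.4% of the selected nuclei, against 63.4% and 30.2% in T or NK-like nuclei. Summed over all selected nuclei, MYH11 reached 2453 CPM, the usual depth-scaled count, and PDGFRA 41.8 CPM.

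**Figure D1:**
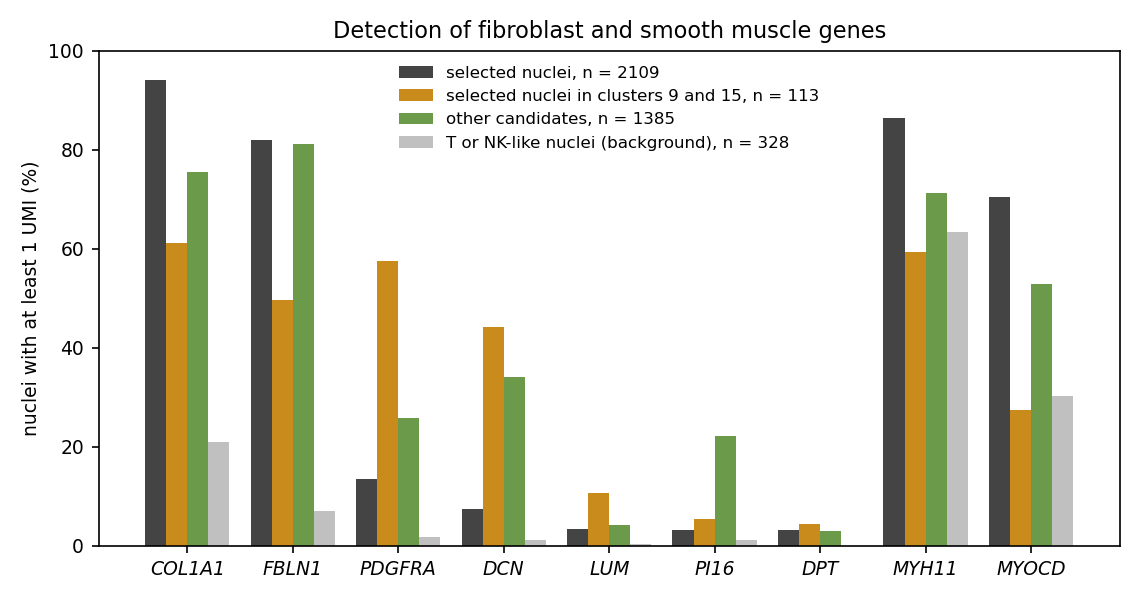
Share of nuclei (%) with at least 1 UMI of 7 genes of the selection and of the smooth muscle genes MYH11 and MYOCD, over all pigs, in the 2109 selected nuclei, the 113 of them in clusters 9 and 15, the 1385 other candidates and 328 T or NK-like nuclei. In the selected nuclei COL1A1 and FBLN1 stand at 94.1% and 82.0%, while PDGFRA, DCN, LUM, PI16 and DPT stay at 13.4% or less.

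Most selected nuclei sat at the edge of the selection. Exactly 2 of the 7 genes were found in 1983 of them and 3 or more in 126. PDGFRA stood at 31.5 CPM in the 1983 nuclei, 163 CPM in the 126, and 7.27 CPM in 9401 nuclei that missed the selection with 1 gene. On the other side of the rule, 386 candidates had exactly 1 UMI of the 6 excluded genes, with PDGFRA at 41.4 CPM, and 999 had 2 or more, with PDGFRA at 93.7 CPM. MYOCD levels were 873 CPM with exactly 2 genes, 534 CPM with 3 or more, 1004 CPM with 1 gene, 802 CPM with 1 UMI of the excluded genes and 451 CPM with 2 or more.

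Clustering of all 36447 nuclei gave 22 clusters, and the selected nuclei were spread over 20 of them. Smooth muscle-like clusters held 1190 of the selected nuclei (56.4%) and 4 clusters left unnamed held 778 (36.9%). The 2 clusters classed by fibroblast markers, 9 and 15, held 113 (5.36%). Cluster 19, left unnamed and with 31 selected nuclei, held some of these markers too. Over all its nuclei FBLN1 was at 485 CPM, PDGFRA at 65.6, DCN at 52.8 and PI16 at 38.4, with LUM and DPT at 0 CPM. Cluster 9 was led by STK32B, RALYL, GRIA4 and CYP27A1, which the selection removes, and gave 20 selected nuclei and 780 other candidates. Cluster 15 was led by ABCA6, ABCA8, APOD and NEGR1 and gave 93 selected nuclei and 67 other candidates. No fibroblast marker is among the leading genes of either, so both are called by number below. The defining Schwann cell gene SOX10 was at 0.568 CPM in cluster 15, against 15.7 CPM in the Schwann cell-like cluster 16, and PDGFRA was at 307 CPM in cluster 15, against 9.44 CPM in cluster 16.

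The clusters that supplied selected nuclei differed between the diet groups. Clusters 0, 1, 2 and 7 gave 1031 of the 1328 selected nuclei of the obese pigs (77.6%) and 38 of the 781 of the control pigs (4.87%). Clusters 3, 4, 5, 6 and 13 gave 144 of the obese selected nuclei (10.8%) and 653 of the control ones (83.6%). Of all nuclei in clusters 0, 1, 2 and 7, selected or not, 89.8%, 98.6%, 96.9% and 97.0% came from obese pigs. In clusters 3, 4, 5, 6 and 13 it was 23.5%, 13.6%, 2.16%, 20.6% and 2.81%. The split by diet was thus there in all nuclei of these clusters and not particular to the selected nuclei. Single pigs weighed heavily: cluster 1 took 219 of its 255 selected nuclei from obese replicate 2, cluster 6 took 190 of 294 from control replicate 2, and cluster 13 took 108 of 116 from control replicate 1. A diet difference over all selected nuclei therefore cannot be told apart from a difference in which clusters supplied them, and values within smooth muscle-like clusters are given beside it.

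**Figure D2:**
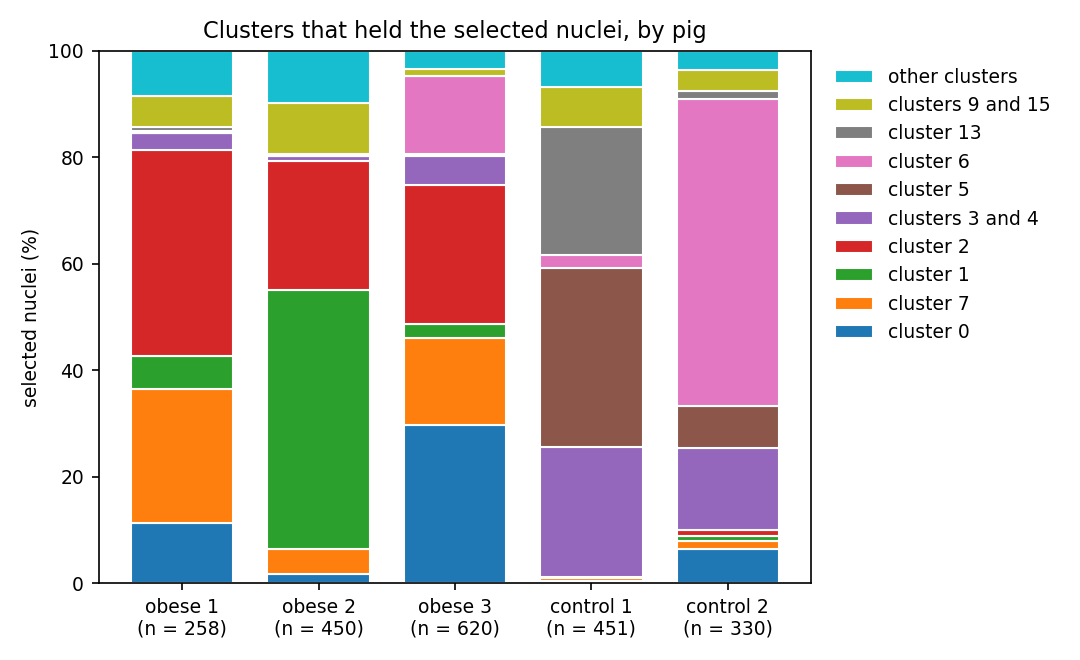
Share of the selected nuclei (%) of each pig held by each cluster, with the number of selected nuclei under each bar, obese pigs on the left and control pigs on the right. Clusters 0, 1, 2 and 7 fill most of the obese bars (77.6% of all obese selected nuclei) and little of the control bars (4.87%). Of all nuclei in these 4 clusters, selected or not, 89.8% to 98.6% came from obese pigs.

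The share of nuclei that were selected did not differ between the groups beyond the spread of the pigs. It was 4.56%, 5.59% and 8.26% in obese replicates 1 to 3, against 4.37% and 6.72% in control replicates 1 and 2, with a mean of 6.14% ± 1.91 (SD, n = 3) against 5.55% ± 1.67 (SD, n = 2). The ranges overlapped (exact two-sided permutation p = 0.8). Of the candidates, 60.0%, 73.5% and 73.2% were selected nuclei in the obese pigs, against 45.1% and 54.5% in the control pigs. Every obese pig lay above both control pigs, at a mean of 68.9% ± 7.72 (SD, n = 3) against 49.8% ± 6.68 (SD, n = 2), and the exact permutation p of 0.2 is the smallest that 3 against 2 pigs allow. The exact binomial 95% interval was 55.2% to 64.7% in obese replicate 1 and 42.0% to 48.2% in control replicate 1, and such intervals cover counting error only. With every nucleus thinned to 1000 UMIs the share of candidates was 76.7% in obese and 44.0% in control pigs, over 853 candidates that remained.

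Set against nuclei that were no candidates, the selected nuclei are described by the 15 genes of largest ratio among those higher in each of the 5 pigs, a condition of the choice. FBLN1 and COL1A1 lead this set because they chose the nuclei. ALDH1A2, an enzyme that makes retinoic acid, had 72.4, 42.4 and 29.8 CPM in the selected nuclei of obese replicates 1 to 3, against 25.8, 17.5 and 9.36 CPM in the non-candidates of the same pigs. In control replicates 1 and 2 it had 198 and 13.7 CPM, against 37.1 and 12.9 CPM. The gap was thus wide in control replicate 1 and within a CPM in control replicate 2. Mean levels were 76.9 CPM against 29.4 CPM for the cation channel gene TRPC4, 93.3 against 51.7 CPM for RUNX2, a transcription factor of bone and cartilage cells, and 136 against 81.0 CPM for POSTN, which encodes the matrix protein periostin. SPRY1 (95.4 against 53.5 CPM), a brake on growth factor signalling, EDIL3 (117 against 70.1 CPM), ISM1 (348 against 192 CPM) and EBF2 (195 against 107 CPM), a transcription factor of mesenchymal and fat precursors, stood in the same order. LAMC3 (88.9 against 55.6 CPM), a laminin chain, MAPK10, USP54 and SYCP2 also belong to the 15 genes. COL1A1 itself averaged 355 against 185 CPM and FBLN1 256 against 64.0 CPM.

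These levels came from different clusters. ALDH1A2 and TRPC4 were at 593 and 338 CPM in the 116 selected nuclei of cluster 13, and at 4.42 CPM or less in those of clusters 0, 1 and 7. In the 376 selected nuclei of cluster 2 they were at 129 and 154 CPM. Obese pigs gave 3 of the selected nuclei of cluster 13 and 371 of those of cluster 2. RUNX2 was highest at 275 and 252 CPM in clusters 19 and 2 among the clusters with at least 15 selected nuclei. EBF2 was at 2408 CPM in cluster 15 and 912 CPM in cluster 19, against 64.3 to 232 CPM in the other clusters with at least 20 selected nuclei. PDGFRA was at 446 CPM in the selected nuclei of cluster 15, 138 CPM in cluster 19 and 81.3 CPM in cluster 2, and MYH11 at 851, 695 and 663 CPM in the same 3 clusters, against 4946 CPM in cluster 0. High MYH11 thus went with low PDGFRA in cluster 0, and lower MYH11 with RUNX2 and POSTN (272 CPM) in cluster 2 and with PDGFRA and EBF2 in cluster 15.

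**Figure D3:**
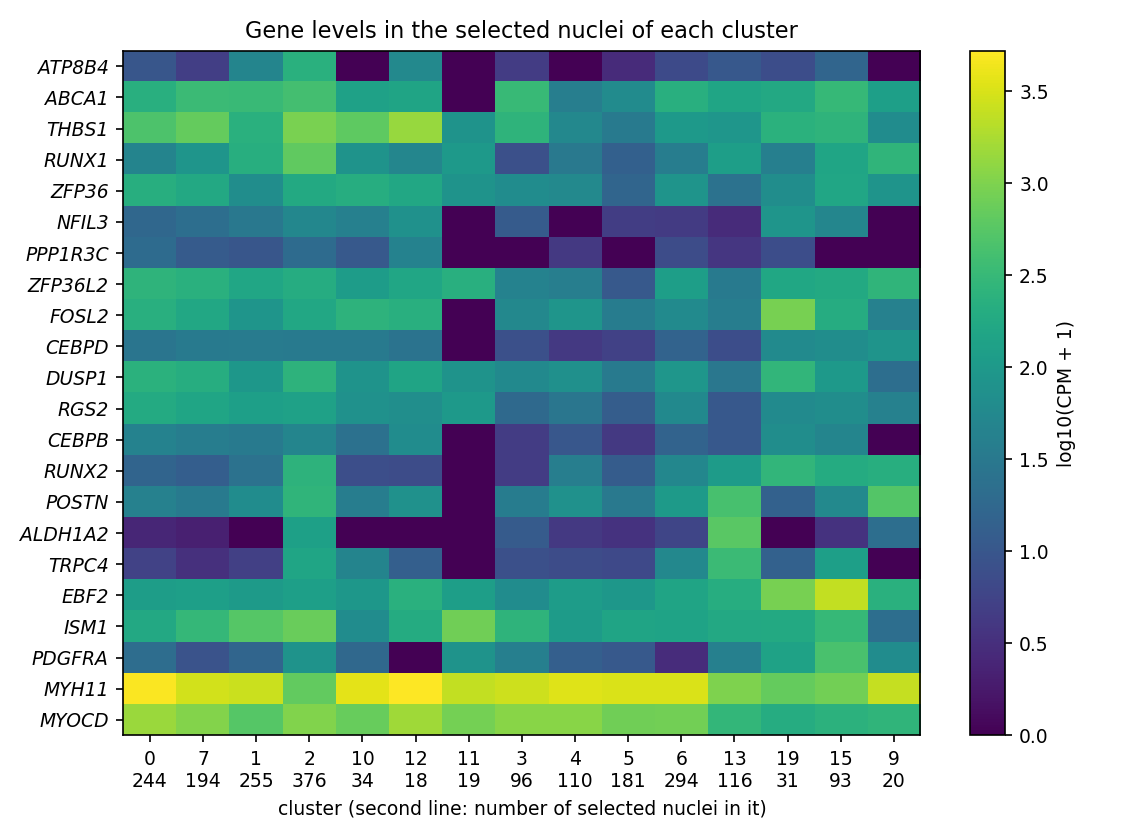
Levels of 22 genes, as log10(CPM + 1), in the selected nuclei of each cluster that held at least 15 of them, with the number of nuclei under the cluster number. PDGFRA and EBF2 are brightest in cluster 15 (446 and 2408 CPM), ALDH1A2 and TRPC4 in cluster 13 (593 and 338 CPM), and MYH11 is bright in the smooth muscle-like clusters.

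The 113 selected nuclei of clusters 9 and 15, the clusters classed by fibroblast markers, are described next. PDGFRA had UMIs in 57.5% of them, COL1A1 in 61.1%, FBLN1 in 49.6%, DCN in 44.2%, LUM in 10.6% and PI16 in 5.31%, at a median of 2976 UMIs per nucleus. They numbered 15, 43 and 8 in the obese pigs, against 34 and 13 in the control pigs, and 1 UMI was worth much in the smallest sums, which held 24408 UMIs in obese replicate 3 and 30417 in control replicate 2. PDGFRA stood at 372, 403 and 860 CPM in the obese pigs, against 409 and 98.6 CPM in the control pigs. DCN stood at 67.7, 229 and 123 CPM in the obese pigs, against 330 and 329 CPM in the control pigs. PI16 had 0, 14.9 and 0 CPM in the obese pigs, against 47.2 and 65.8 CPM in the control pigs. All genes named in this paragraph chose the nuclei, and all but COL1A1 also classed the 2 clusters. Their levels describe what was chosen and are no test of the cell type.

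Beyond the genes of the selection, some of the 15 genes with the largest ratio of these 113 nuclei over the non-candidates are given as values. Being higher in all 5 pigs was a condition of that choice. ABCA6, which encodes an ABC transporter of the lipid-linked A subfamily, had 304, 1024 and 1065 CPM in the obese pigs, against 1203 and 132 CPM in the control pigs. ABCA8, of the same subfamily, had 237, 1308 and 942 CPM, against 1156 and 98.6 CPM. Control replicate 2 was lowest for both, and the groups overlapped. NID1, which encodes the basement membrane protein nidogen 1, averaged 559 CPM over the pigs, against 14.02 CPM in nuclei that were no candidates, and stood at 32.9 CPM in control replicate 2. LAMC3, a laminin chain, averaged 117 CPM here, against 678 CPM in the other candidates of the same clusters, and was lower in all 5 pigs. SPON1, an extracellular matrix gene, averaged 804 CPM against 30.2 CPM. NEGR1, a cell adhesion gene, averaged 1005 against 15.6 CPM, and VIT, a matrix gene, 135 against 1.92 CPM. Single pigs stood far below these means, with NEGR1 at 32.9 CPM (1 UMI) in control replicate 2 and VIT at 16.9 CPM (1 UMI) in obese replicate 1. Set against the other candidates of the same 2 clusters, EBF2 averaged 1634 CPM against 291 CPM and PPL, which encodes periplakin, 125 against 7.15 CPM, each higher in all 5 pigs. Genes were taken from the comparison with the other candidates only where all 5 pigs went the same way, so that agreement is no result. The EBF2 gap was smallest in control replicate 2, at 296 CPM (9 UMIs) against 187 CPM. Cluster 15 held 93 of the 113 nuclei, while those other candidates were 780 nuclei of cluster 9 and 67 of cluster 15. All nuclei of cluster 15, selected or not, averaged 1220 CPM for EBF2, 583 for NID1, 944 for SPON1, 640 for NEGR1 and 101 for VIT. High levels of these genes were thus not particular to the 113 nuclei. MYH11 stood at 2791, 418 and 2827 CPM in the obese pigs, against 873 and 756 CPM in the control pigs, and 40.0%, 9.30% and 37.5% of these nuclei, against 11.8% and 30.8%, had doublet scores in the highest range of their library. Endothelial markers summed to 457, 308 and 205 CPM in the obese pigs, against 259 and 3288 CPM in the control pigs. The part of mixed droplets in these levels was not tested.

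Over all selected nuclei, a small set of genes differed between the diets, among them 3 immediate early genes and the cholesterol exporter gene ABCA1. For this, the UMIs of each gene were added up within a pig, edgeR's quasi-likelihood test set the 3 obese against the 2 control sums, and a gene was called at a Benjamini-Hochberg adjusted p under 0.05. Of 11572 genes tested, 16 were called (0.138%), 15 higher (0.13%) and 1 lower (0.00864%) in obese pigs, and obese and control pigs did not overlap for the 14 of these that carry a symbol. Over all genes tested, every obese pig lay above both control pigs for 15.6% and below them for 13.5%, and the median log2 fold change was 0.01. The selected nuclei summed to between 1505278 UMIs (obese replicate 1) and 3487922 UMIs (obese replicate 3) per pig.

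ZFP36L2 and RGS2 had the smallest p of the called genes. ZFP36L2, whose protein binds and destabilises AU-rich messenger RNA, had 192, 205 and 249 CPM in obese replicates 1 to 3, against 22.3 and 15.7 CPM in control replicates 1 and 2. It was 11.3-fold higher in obese pigs (log2 fold change 3.50, SE 0.29, adjusted p = 0.0063 by edgeR). RGS2, which shortens signals of G protein-coupled receptors, had 184, 129 and 130 CPM in the obese pigs, against 11.6 and 14.2 CPM in the control pigs (log2 fold change 3.51, SE 0.32, adjusted p = 0.00641). For both genes every obese pig lay far above both control pigs. DUSP1, a phosphatase that switches off MAP kinases, had 184, 142 and 271 CPM in the obese pigs, against 28.8 and 20.1 CPM in the control pigs (log2 fold change 3.04, SE 0.38, adjusted p = 0.0374). ZFP36, a relative of ZFP36L2, rose by 2.94 on the log2 scale (SE 0.43, adjusted p = 0.0467), with 173 ± 54.8 CPM in obese pigs (SD, n = 3) against 22.8 ± 9.37 CPM in control pigs (SD, n = 2).

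FOSL2, RUNX1, CEBPB, CEBPD and NFIL3, which encode transcription factors, were called higher as well. FOSL2, a subunit of AP-1, had 199, 162 and 183 CPM in the obese pigs, against 44.3 and 26.5 CPM in the control pigs (log2 fold change 2.36, SE 0.29, adjusted p = 0.0374 by edgeR). RUNX1, best known from blood formation, had 421, 394 and 160 CPM in the obese pigs, against 49.5 and 39.2 CPM in the control pigs (log2 fold change 2.85, SE 0.40, adjusted p = 0.0437). Obese replicate 3 was the lowest obese pig for RUNX1 and still lay above both control pigs. CEBPB and CEBPD, which take part in inflammation and in fat cell formation, averaged 43.5 ± 8.28 and 36.2 ± 8.14 CPM in obese pigs, against 7.32 ± 0.744 and 6.02 ± 0.185 CPM in control pigs. Their log2 fold changes were 2.56 and 2.57 (SE 0.34 each, adjusted p = 0.042 each). NFIL3, a repressor tied to the circadian clock and to immune cells, rose by 3.02 (SE 0.43, adjusted p = 0.0437), with 36.9 ± 8.15 CPM against 4.30 ± 2.61 CPM.

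ABCA1, which exports cholesterol to apolipoproteins, had 457, 330 and 341 CPM in the obese pigs, against 104 and 99.5 CPM in the control pigs (log2 fold change 1.88, SE 0.26, adjusted p = 0.0437). THBS1, which encodes the matrix protein thrombospondin 1, had 973, 345 and 698 CPM, against 55.6 and 78.9 CPM (log2 fold change 3.33, SE 0.48, adjusted p = 0.0467). ATP8B4, which encodes a P4-type ATPase of the lipid flippase family, had 182, 102 and 42.1 CPM, against 3.23 and 0.981 CPM (log2 fold change 5.53, SE 0.74, adjusted p = 0.042). Obese replicate 3 was the lowest obese pig and lay above both control pigs. Its level followed clusters, with 232 CPM in the selected nuclei of cluster 2 and 8.84 CPM in those of cluster 0. The genes that came closest to a call on the lower side were IDH1 (-1.80), ITGB5 (-1.27), SQLE (-2.43) and LAMC3 (-1.57), with adjusted p from 0.107 to 0.108. PPP1R3C, a subunit that directs a phosphatase to glycogen, rose by 3.63 (SE 0.52, adjusted p = 0.0467), at low levels of 15.4 ± 3.41 CPM in obese and 1.22 ± 0.354 CPM in control pigs.

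**Figure D4:**
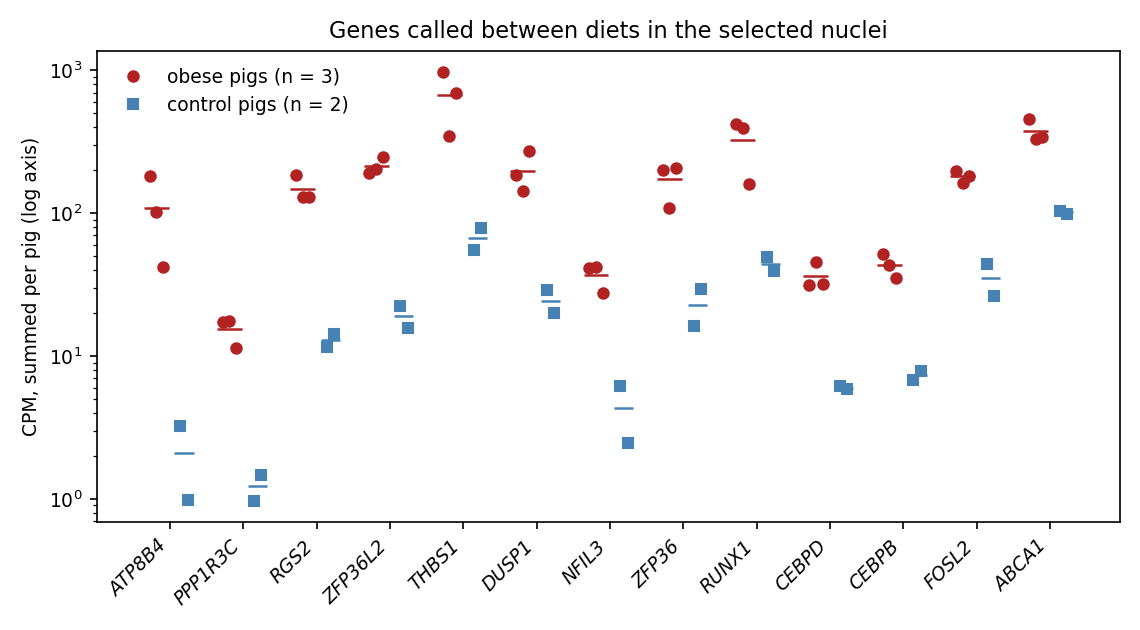
CPM of 13 genes called between diets, summed over the selected nuclei of each pig, on a log axis, with obese pigs (circles, n = 3) left of control pigs (squares, n = 2) and bars at the group means. Every obese pig lies above both control pigs for each of the 13 genes, with ABCA1 at 330 to 457 CPM against 99.5 and 104 CPM.

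Smooth muscle-like clusters held 117, 48 and 424 selected nuclei of the obese pigs and 299 and 302 of the control pigs. Within them 40 of 9987 genes tested were called, against 16 of 11572 over all selected nuclei. Of those 16 genes, 11 were among the 40. The nuclei of this set are part of the selected nuclei, so shared calls and directions are no second test. That set was defined after the data were seen. ZFP36L2 (log2 fold change 4.01), THBS1 (4.11), RGS2 (3.37) and ABCA1 (1.87) were among the 11, and all 16 kept their direction. RUNX1 had 89.7, 89.3 and 61.4 CPM there in obese pigs, against 16.6 and 30.8 CPM in control pigs, and was not called (log2 fold change 1.72, adjusted p = 0.0810 by edgeR). ATP8B4 had 4.49, 19.8 and 9.95 CPM in the obese pigs, against 1.04 and 1.04 CPM in the control pigs (adjusted p = 0.18). Different clusters supplied this set too, mainly 0, 7 and 6 in obese pigs and 6, 5, 4 and 3 in control pigs. The count of calls over all selected nuclei was 0 without either control pig, 2 without obese replicate 1, 56 without obese replicate 2 and 39 without obese replicate 3.

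Among the gene lists, which were chosen with earlier results of these data known, immediate early genes had positive values throughout. These genes answer growth and stress signals within minutes. FOS, EGR1, FKBP5, SREBF2 and ABCG1 below were picked as examples after their values were seen. Of 19 tested in the selected nuclei, FOSL2, DUSP1 and ZFP36 were called, against 0.138% of all genes tested. The list median of the log2 fold change was 1.42 against 0.01 over all genes tested, and every obese pig lay above both control pigs for 15 of the 19, against 15.6% of all genes tested. FOS, an AP-1 subunit, had 609, 379 and 957 CPM in the obese pigs, against 184 and 161 CPM in the control pigs (log2 fold change 1.94, adjusted p = 0.131 by edgeR). EGR1, another early transcription factor, had 498, 285 and 754 CPM in the obese pigs, against 269 and 241 CPM in the control pigs (1.04, adjusted p = 0.341). Obese replicate 3 was highest and obese replicate 2 lowest of the obese pigs for both genes. Of 13 glucocorticoid-responsive genes tested, CEBPB and CEBPD were called, against 0.138% of all genes tested, at a list median of 1.11 against 0.01, while FKBP5, a classic target of the hormone, had a log2 fold change of 0.28.

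Sterol genes had a negative median. Of 14 tested genes of cholesterol synthesis and uptake, 0 were called higher by edgeR, against 0.13% of all genes tested. Whether any of them was called lower is not reported here. The median was -1.24, and every obese pig lay below both control pigs for 12 of the 14, against 13.5% of all genes tested. SQLE, an early enzyme of the sterol branch, had 3.32, 12.1 and 6.02 CPM in the obese pigs, against 52.7 and 26.5 CPM in the control pigs (log2 fold change -2.43, adjusted p = 0.108 by edgeR). SREBF2, the gene of the transcription factor that drives this pathway, had 28.6, 47.4 and 38.1 CPM, against 96.1 and 88.7 CPM (-1.28, adjusted p = 0.116). Of 10 tested genes regulated by LXR, the oxysterol receptors, ABCA1 was called, against 0.138% of all genes tested, and the median was 1.10 against 0.01. ABCG1, also a cholesterol exporter, had 23.3, 18.9 and 25.8 CPM in the obese pigs, against 3.88 and 4.41 CPM in the control pigs (2.46, adjusted p = 0.0848).

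**Figure D5:**
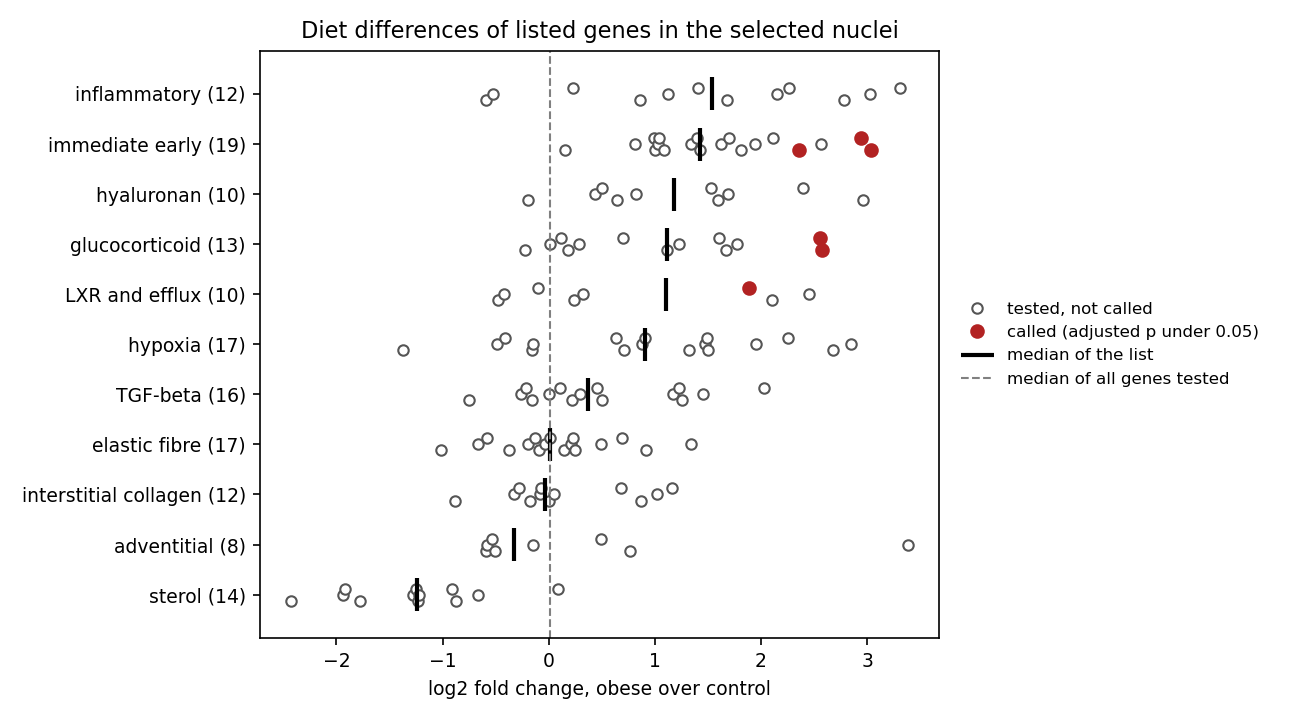
Log2 fold change (obese over control) of each tested gene of 11 lists in the selected nuclei, with the number of tested genes in brackets, called genes filled, a bar at the median of each list and a dashed line at the median of all genes tested (0.01). The medians run from -1.24 for sterol genes to 1.54 for inflammatory genes, and APOE and SMPDL3A, with 1 and 2 UMIs in the control pigs, and genes not reported here are not drawn.

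Matrix genes, which define the work of fibroblasts, did not yield a call as lists. Of 12 interstitial collagen genes, 17 elastic fibre genes, 16 basement membrane genes and 9 proteoglycan genes tested, 0 were called by edgeR, against 16 of all 11572 genes (0.138%), of which 1455 had an unadjusted p under 0.05, and the list medians were -0.03, 0.01, -0.15 and -0.30. By list, 0 to 3 genes had every obese pig above both control pigs and 1 to 5 every obese pig below them, against 15.6% and 13.5% of all genes tested. Genes of the selection were not taken out of any gene list. Where a list holds such genes, their part in its counts and median is a description and no test. COL3A1, a chain of type III collagen, had 140, 201 and 240 CPM in the obese pigs, against 423 and 298 CPM in the control pigs (log2 fold change -0.88, adjusted p = 0.264). FN1, which encodes fibronectin, had 1328, 875 and 1472 CPM in the obese pigs, against 728 and 632 CPM in the control pigs (0.87, adjusted p = 0.295). ELN, the elastin gene, had 581, 857 and 1257 CPM, against 721 and 1236 CPM (-0.13, adjusted p = 0.931), and its groups overlapped. Among 8 tested genes of the adventitial fibroblast list 0 were called, at a median of -0.33. GSN, which encodes the actin-severing protein gelsolin, had 239, 339 and 349 CPM, against 440 and 481 CPM (-0.58, adjusted p = 0.371).

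Among the tested markers of other cells, 0 were called by edgeR in the selected nuclei, against 0.138% of all genes tested. Of 10 macrophage markers 3 were tested, and every obese pig lay above both control pigs for all 3, against 15.6% of all genes. Their median log2 fold change was 4.00, against 0.01 over all genes tested. The 5 tested pericyte markers had a median of -0.55. For 2 of them every obese pig lay below both control pigs, against 13.5% of all genes tested. Summed levels are given by pig. The 10 macrophage markers summed to 19.3, 52.4 and 10.0 CPM in the obese pigs, against 3.88 and 3.92 CPM in the control pigs, with CSF1R and CD163 at 0 by the selection. From 5 to 8 markers were above 0 in an obese pig, against 3 and 5 in the control pigs. SPP1, the osteopontin gene, had 42, 88 and 16 UMIs in the obese pigs and 0 in both control pigs. APOE had 6, 75 and 12 UMIs in the obese pigs, against 1 and 0 in the control pigs. Obese replicate 2 held most of the UMIs of both genes. Smooth muscle markers summed to 6916, 6008 and 10757 CPM in the obese pigs, against 7420 and 10042 CPM in the control pigs, and endothelial markers to 1109, 1215 and 1515 CPM, against 763 and 1082 CPM. The part of these markers in the called genes was not tested.

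In the 113 selected nuclei of clusters 9 and 15, no gene passed the threshold at the depth reached. Of 1622 genes tested by edgeR 0 were called (0.0%), with 97 at an unadjusted p under 0.05, and the DESeq2 Wald test and limma-voom called 0 as well. THBS1 had 507, 288 and 369 CPM in the obese pigs, against 55.0 and 32.9 CPM in the control pigs (log2 fold change 2.94, SE 0.64, adjusted p = 0.486). On the lower side, HMCN1, which encodes the matrix protein hemicentin 1, had 101, 269 and 328 CPM, against 1140 and 888 CPM (-2.14, SE 0.57, adjusted p = 0.646). MARCHF3, a ubiquitin ligase gene, had 67.7, 14.9 and 123 CPM, against 370 and 362 CPM (-2.94, SE 0.77, adjusted p = 0.646). Obese and control pigs did not overlap for these 3 genes, which was so for 11.2% of tested genes on the higher and 10.9% on the lower side. Of 9 immediate early genes tested here 0 were called, at a median log2 fold change of 1.82.

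PI16 was tested only in nuclei chosen without it, that is by at least 2 of the 6 remaining genes. It had 1, 11 and 0 UMIs in the obese pigs, against 13 and 4 UMIs in the control pigs, or 0.672, 3.97 and 0 CPM against 4.33 and 1.99 CPM. The groups overlapped through obese replicate 2, and PI16 was not called (log2 fold change -1.05, SE 1.06, adjusted p = 0.738 by edgeR, with 11 of 11520 genes called, or 0.0955%, 10 of them higher, or 0.0868%, and 1 lower, or 0.00868%). A difference was not detected at these counts.

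Whether the diet effect differed between the selected nuclei and other nuclei of the same pigs was tested as an interaction in edgeR with the pig as a block. Against the other candidates, 1 of 11317 genes differed (0.00884%). RUNX1 rose more in the selected nuclei, by 1.66 on the log2 scale (SE 0.23, adjusted p = 0.0422). In the other candidates it had 546, 528 and 321 CPM in the obese pigs, against 245 and 180 CPM in the control pigs, so its level was higher there in both groups and the gap between diets smaller. NALF1 (interaction -4.51, adjusted p = 0.056) and KCNT2 (-2.62, adjusted p = 0.056) had the smallest p on the other side. The other candidates came mostly from cluster 9, with 780 of 1385, so this compares sets of different make-up, and the RUNX1 call ended without obese replicate 1 (adjusted p = 0.0556), obese replicate 2 (0.0876), control replicate 1 (0.461) or control replicate 2 (0.0845).

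Against nuclei that were no candidates, 3 of 17556 genes differed (0.0171%), GRID1, GRIP1 and BMPER. GRID1, a glutamate receptor-like gene, had 20.6, 28.5 and 12.3 CPM in the selected nuclei of the obese pigs, against 3.23 and 8.34 CPM in those of the control pigs. In the non-candidates it had 12.8, 8.26 and 7.91 CPM in the obese pigs, against 59.0 and 86.6 CPM in the control pigs (interaction 4.86, SE 0.43, adjusted p = 0.00248). GRIP1 (3.24, SE 0.42, adjusted p = 0.0406) and BMPER (2.53, SE 0.28, adjusted p = 0.0128) had the same sign, and the GRIP1 call ended without obese replicate 3 (adjusted p = 0.0670). GRID1 and GRIP1 are among the leading genes of the endothelial-like cluster 14, of which 19.3% of nuclei came from obese pigs. That cluster held 4 selected nuclei. The selection leaves out nuclei with PECAM1, and the part of this in the count and in the calls was not tested. Restricted to smooth muscle-like clusters on both sides, a set chosen after seeing the data, 0 genes were called (544 at an unadjusted p under 0.05), and GRID1 had an interaction of -0.19. For the 14 named genes called between diets, the interaction against the non-candidates was not called, and the same pigs gave log2 fold changes in the non-candidates of 2.58 for ZFP36L2 and 2.02 for ABCA1.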

How the data were processed

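Nuclei from 5 abdominal aortae (3 obese pigs, 2 control pigs, 1 library each) were measured by single-nucleus RNA sequencing. The values deposited by the authors are 10x matrices of unnormalized UMI counts, named as Cell Ranger 7.1.0 output per the file headers, while the submitters' processing notes name Cell Ranger 5.0, Seurat 5.0 and the build Sscrofa11. Of 35670 features, 17508 carried a symbol in the files and 223 were named by a gene table. The members and the gene lists were chosen with earlier results of these data known.

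All 36447 barcodes with at least 1000 UMIs were clustered with scanpy 1.11.5 (3000 variable genes, 30 components, 20 neighbours, leiden resolution 1.0). A cluster took a class from at least 3 markers at 20 CPM or more, each at least 2 times its lower quartile over the clusters. The mean position of the markers between that quartile and the highest cluster also had to reach 0.4. Libraries held 20924144 to 46299177 UMIs in these nuclei. The automatic doublet threshold marked 2 barcodes and had not worked, so doublets were removed by score only as an alternative. Between libraries, 199 barcode sequences were shared, 16 of them in selected nuclei.

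Counts were summed per pig and tested with edgeR 4.0.16 (TMM, filterByExpr, quasi-likelihood F-test, Benjamini-Hochberg), with DESeq2 1.42.0 and limma 3.58.1 (voom) as alternatives. Standard errors are the log2 fold change over the square root of F. The test was tried on simulated data. Named genes were the 10 called genes of largest rise and of largest fall, filled to 5 per direction by p, called list members, the 2 highest-CPM members of lists with no call, and for the profile the 15 genes of largest ratio that held in every pig. CEBPB, ABCA1 and FOSL2 entered as called list members or by being among few called. Replicate numbers name samples only: deviations of same-numbered pigs correlated at 0.113 and -0.0867. Labels do not say more of how the replicates were taken than 1 sample each, so p-values measure the spread between these samples. Some genes that the rule names are not reported here, in the text or the figures.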

Additional observations from a re-analysis of the deposited data

Results flagged for a closer look

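The interaction test of edgeR called 4 genes between the selected nuclei and other nuclei of the same pigs, which are sets of different make-up. RUNX1 had 421, 394 and 160 CPM in the selected nuclei of the obese pigs, against 49.5 and 39.2 CPM in those of the control pigs, and its diet effect exceeded that in the other candidates by 1.66 on the log2 scale. By the same test RUNX1 was not called without obese replicate 1 (adjusted p = 0.0556) or obese replicate 2 (0.0876). Leaving out control replicate 1 or 2 keeps 1 control pig, and the interaction was then 1.57 or 1.74.

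The remaining 3 genes were called against nuclei that were no candidates, which keep the nuclei with PECAM1 that the selection leaves out. GRID1 had an interaction of 4.86. BMPER had 34.5, 37.4 and 26.4 CPM in the selected nuclei of the obese pigs, against 28.1 and 14.7 CPM in those of the control pigs. In the non-candidates BMPER had 50.7, 30.3 and 22.5 CPM in the obese pigs, against 145 and 91.4 CPM in the control pigs (interaction 2.53). GRIP1 had 3.32, 6.41 and 4.01 CPM in the selected nuclei of the obese pigs, against 8.41 and 5.39 CPM in those of the control pigs. In the non-candidates GRIP1 had 10.7, 7.04 and 6.56 CPM in the obese pigs, against 109 and 100.2 CPM in the control pigs (interaction 3.24). Within smooth muscle-like clusters, a set chosen after seeing the data, 0 of 13508 genes were called (544 at an unadjusted p under 0.05 by edgeR). The interactions there were -0.19 for GRID1, 0.18 for BMPER and 0.07 for GRIP1. The part of the nuclei with PECAM1 in these 3 calls was not tested.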

How the results depend on the processing

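The count of genes called in the selected nuclei, 16, was 189 with DESeq2, 502 with no filter on low counts, 4 with limma-voom, 153 with the replicate block, 5 after quality filtering and doublet removal, 0 with at least 3 marker genes (296 at an unadjusted p under 0.05) and 0 after thinning (184), both by edgeR, and 40 within smooth muscle-like clusters. Leaving out 1 pig gave 0 to 56. In clusters 9 and 15 the count was 3 with no filter and 0 to 1 with 1 pig left out, the 1 being without control replicate 1. Against the other candidates it was 65 with no filter, 0 with at least 3 marker genes (199 at an unadjusted p under 0.05 by edgeR) and 0 to 2 with 1 pig left out. Against the non-candidates it was 228 with no filter, 11 with at least 3 marker genes, 0 within smooth muscle-like clusters and 4 to 17 with 1 pig left out. There GRID1 turned to -0.185. The difference in the share of nuclei, 0.590 points, ran from -0.588 to 1.77 with 1 pig left out, and was negative without obese replicate 3 (-0.470) or control replicate 1 (-0.588). The replicate block gave PI16 a log2 fold change of -0.49. The cause of these shifts was not tested. Alternatives within smooth muscle-like clusters were chosen after seeing the data. Not run was a selection by at least 4 marker genes, which left 2 pigs with 0 nuclei, and PI16 fell below the filter after thinning. Depth limits clusters 9 and 15 most, with 24408 UMIs in obese replicate 3.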

Other observations

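Genes of inflammation, hypoxia and hyaluronan metabolism had medians above that of all genes tested in the selected nuclei. By edgeR 0 of them were called, against 0.138% of all genes tested. The lists were chosen with earlier results of these data known, so the medians are a description. Every obese pig lay above both control pigs for 9 of 12 inflammatory genes (median log2 fold change 1.54), 9 of 17 hypoxia genes (0.91) and 6 of 10 hyaluronan genes (1.18), against 15.6% of all genes tested. VEGFA, a growth factor for vessels picked after its values were seen, had 30.6, 19.95 and 41.3 CPM in the obese pigs, against 4.21 and 4.41 CPM in the control pigs (log2 fold change 2.84, adjusted p = 0.0859).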
